A study of Mus musculus with 48 samples.

Results

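Livers of mice whose diets exchanged protein for fat were compared, with carbohydrate held at 20% of energy. Each diet is named by its shares of energy in the order protein, carbohydrate, fat: 5/20/75 held 5%, 20% and 75%. Of 48 mice with liver arrays, 10 were chosen by their diet label alone: 2 on high energy 5/20/75, 2 on high energy 33/20/47, 3 on medium energy 33/20/47 and 3 on high energy 60/20/20. All 10 had eaten their diet without restriction from 3 weeks of age until the liver was taken at 15 months, and each came from a different cage. High, medium and low are the energy levels named in the labels, and 3 low energy 60/20/20 mice stood outside this set. The labels gave neither strain nor the sex of each mouse, although both sexes entered the study. Total RNA was hybridised to Affymetrix expression arrays, 1 per mouse, and the deposited values were read as log2 expression. The number of arrays sets the precision of every value, and with 2 or 3 mice in a group it was limited.

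The liver disposes of the nitrogen of amino acids that are not used for protein. Aminotransferases and other enzymes strip it from the carbon skeleton, and the urea cycle turns the resulting ammonia into urea. When amino acids are scarce, the kinase GCN2 senses uncharged transfer RNA and raises the transcription factor ATF4, which switches on amino acid synthesis, transporters and the hormone FGF21. Dietary fat is in part burned by beta-oxidation and made into ketone bodies under the nuclear receptor PPAR alpha. Desaturated fatty acids are made by SCD1, an enzyme known to be repressed by polyunsaturated fat and induced by insulin and carbohydrate.

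As protein took the place of fat, the amino acid breakdown genes Got1, Oat, Prodh, Kynu and Acmsd and the urea cycle gene Cps1 rose, together with the fatty acid desaturase Scd1, the urate pathway enzyme Urad and the neutral amino acid transporter Slc43a1. The cationic amino acid transporter Slc7a7, the orphan receptor Adgrg2, the interferon-related genes Gbp10 and Ifi27l2b and the epoxide hydrolase Ephx1 fell. Of 16926 genes tested 19 passed (0.112%), 14 upward (0.0827%) and 5 downward (0.0295%), at a limma adjusted p under 0.05. The test was of a slope on the protein share, with energy level as a factor, given below as the log2 change for each 10 points of energy moved from fat to protein. Before adjustment 1489 genes had a limma p under 0.05, 479 upward and 1010 downward. Over all 16926 genes 8275 slopes were positive and 8651 negative, and the counts of each list below are to be read against these. The number of calls rested on single mice. It was 0 without high energy 60/20/20 replicate 1, without 5/20/75 replicate 1 and without 5/20/75 replicate 2 (1378, 1008 and 705 genes with an unadjusted p under 0.05 in limma), 1 without medium energy 33/20/47 replicate 2, 2 without 60/20/20 replicate 3, 34 without 60/20/20 replicate 2 and 51 without high energy 33/20/47 replicate 1. In all 10 of these fits each of the 19 genes kept its direction, which was fixed in advance. The medium energy mice all had 33% protein and their own energy term, so the high energy mice alone set the slope. Leaving out a medium energy mouse changed only the estimate of the spread and could not change a direction. Nor could leaving out a high energy mouse, because in all 19 genes the high energy groups lay in order without overlap. With the spread estimated from all 48 mice 90 genes passed, 13 of the 19 among them, and Oat, Gbp10, Lrtm1, Cyp2f2, Ifi27l2b and Ephx1 did not (limma adjusted p from 0.055 to 0.135).

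Cps1, the entry enzyme of ammonia into urea, stood at 10.81 and 10.81 in the 5/20/75 mice, 11.94 and 12.11 in the high energy 33/20/47 mice, 12.04, 12.14 and 12.35 in the medium energy ones, and 12.30, 12.41 and 12.28 at 60/20/20. Both 5/20/75 mice lay below the other 8, and most of the difference lay between 5% and 33% protein. The slope was 0.27 ± 0.04 (SE, n = 10; limma adjusted p = 0.026), a fitted 2.78-fold over the 55 points that separate the end diets. All 8 urea cycle genes had positive slopes with a median of 0.15, against a median of -0.0016 over all genes tested. Cps1 alone passed, and 0 of 8 fell. Asl, which releases arginine (0.28 ± 0.07, adjusted p = 0.168), the mitochondrial ornithine carrier Slc25a15 (0.23 ± 0.07, adjusted p = 0.262) and Arg1, which splits arginine into urea and ornithine (0.19 ± 0.07, adjusted p = 0.433), did not pass in limma. The mean level of the list was 8.85 to 8.87 in the 5/20/75 mice and 9.30 to 9.87 in the other 8, with no overlap.

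The amino acid catabolism list had 40 tested genes, of which 5 rose and 0 fell, with 35 positive slopes and a median of 0.11. Got1, the cytosolic aspartate aminotransferase, read 9.0 in both 5/20/75 mice, 10.91 and 11.07 at high energy 33/20/47, 10.59, 10.77 and 11.21 at medium energy 33/20/47, and 11.36, 11.49 and 11.17 at 60/20/20. The 5/20/75 mice were again the lowest, and the 60/20/20 mice overlapped with the medium energy midpoint but not with the high energy one. Its slope of 0.41 ± 0.06 (adjusted p = 0.026) came to 4.77-fold over 55 points. Oat, which links ornithine to proline and glutamate, was at 9.86 and 9.62, then 11.14 and 11.25, then 10.72, 10.57 and 11.06 at medium energy, and 11.45, 11.66 and 11.45 at 60/20/20. Prodh, the first enzyme of proline oxidation, was at 6.62 and 6.72, then 8.01 and 7.77, then 7.45, 7.56 and 7.98, and 8.45, 8.27 and 8.31. In both genes the 60/20/20 mice were above every other mouse. Their slopes were 0.31 ± 0.04 (adjusted p = 0.026) and 0.30 ± 0.04 (adjusted p = 0.033).

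Both remaining rises of the catabolism list belong to tryptophan breakdown. Acmsd diverts an intermediate of the kynurenine pathway away from NAD synthesis, and Kynu cleaves kynurenine and 3-hydroxykynurenine. Acmsd lay at 4.81 and 4.43 in the 5/20/75 mice, 6.74 and 7.25 at high energy 33/20/47, 7.11, 7.96 and 9.03 at medium energy, and 8.65, 7.47 and 8.14 at 60/20/20. Both 5/20/75 mice were the lowest, while the medium energy mice spread across the 60/20/20 values. The slope of 0.62 ± 0.09 (adjusted p = 0.034) was a fitted 10.6-fold. Kynu went from 7.93 and 8.12 through 8.83 and 9.18, with 8.75, 8.78 and 8.79 at medium energy, to 9.71, 9.38 and 9.37, with a slope of 0.26 ± 0.04 (adjusted p = 0.026). Its groups at 5%, 33% and 60% protein did not overlap. The 5 negative slopes of the list, named after their values were seen, were those of the taurine-forming enzyme Csad (-0.59, adjusted p = 0.116), Etfdh (-0.06), Amt (-0.05), Got2 (-0.04) and Glud1 (-0.03), and none passed.

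The mean level of the catabolism list was 8.99 to 9.08 in the 5/20/75 mice, 9.64 to 9.78 in the high energy 33/20/47 mice, 9.53 to 9.78 at medium energy and 9.73 to 9.79 at 60/20/20. The gap between 5% and 33% protein was thus several times that between 33% and 60%. A contrast of the extreme diets, 60/20/20 minus 5/20/75 with the spread taken from all 4 groups, gave 173 genes, 65 higher and 108 lower at 60/20/20, all 19 called genes among them. In it 14 of the 40 catabolism genes and 4 of the 8 urea cycle genes passed. Beyond those above, and named after their values were seen, they included the lysine-degrading Aass (0.35 ± 0.04 for each 10 points, limma adjusted p = 0.00395), Gnmt, which disposes of excess methyl groups (0.30 ± 0.03, adjusted p = 0.00127), Tdo2, which opens the tryptophan ring (0.24 ± 0.04, adjusted p = 0.0198), and the histidine ammonia lyase Hal (0.25 ± 0.04, adjusted p = 0.0135). Branched-chain amino acid catabolism had 16 of 17 positive slopes and a median of 0.06, with 0 genes past the threshold and 2 with an unadjusted p under 0.05 in limma. With the interquartile range of the arrays as a covariate it had 13 positive slopes and a median of 0.02. Dbt (0.10 ± 0.03) and Acadsb (0.13 ± 0.05), of the branched-chain keto acid and 2-methylbutyryl steps, had adjusted p of 0.362 and 0.441.

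**Figure D1:**
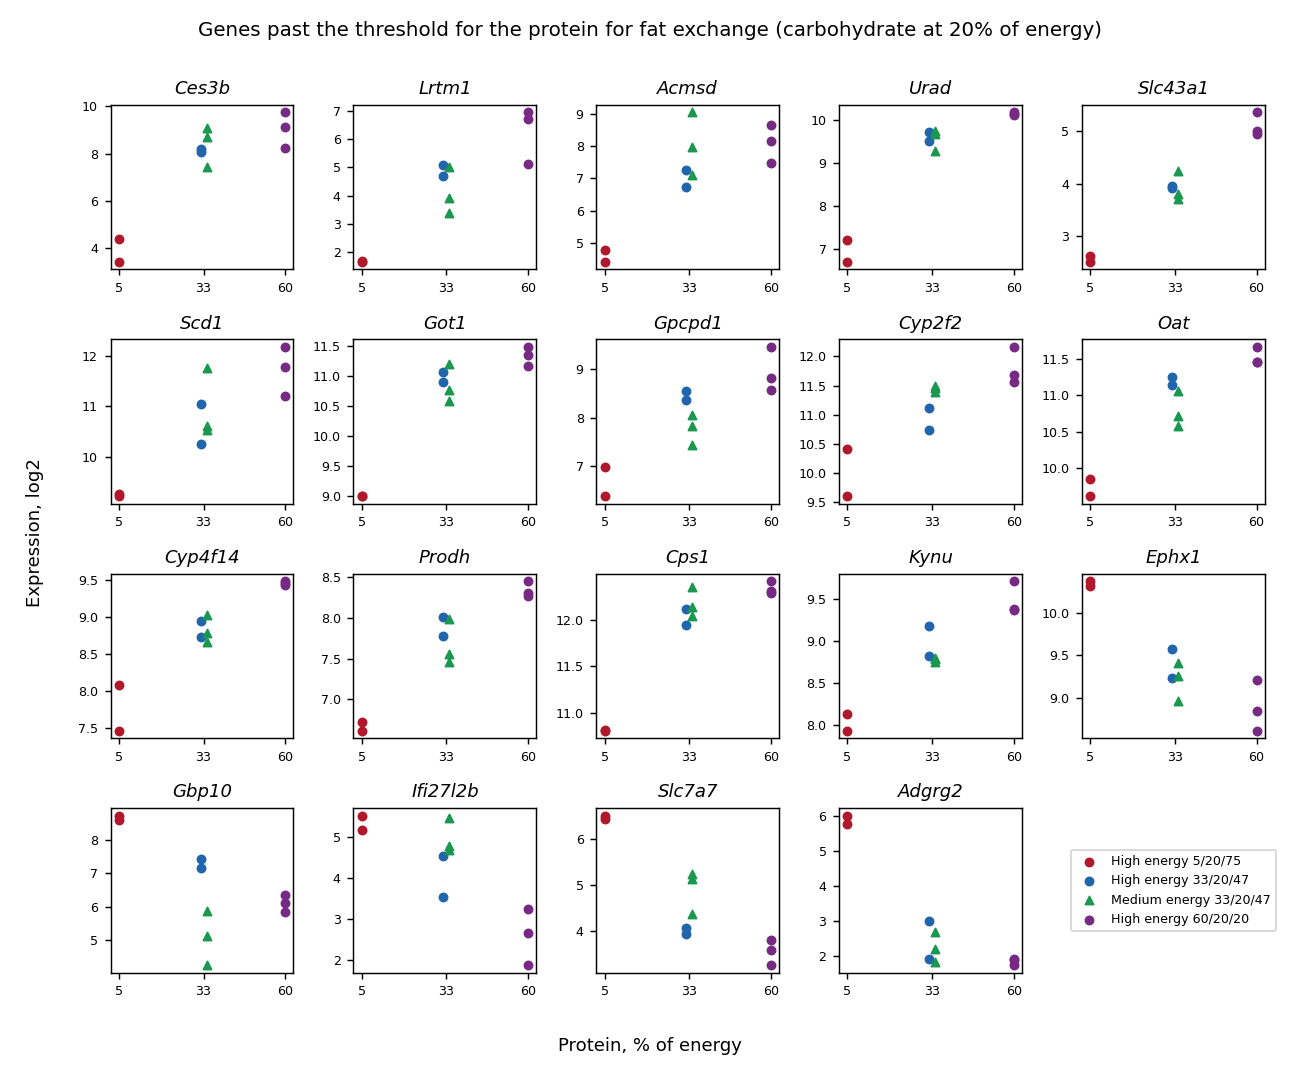
Each panel plots 1 of the 19 genes past the threshold, with protein as percent of energy on the horizontal axis and log2 expression on the vertical axis. Points are single mice, with the medium energy mice as triangles, and in each panel the high energy mice at 5%, 33% and 60% protein lie in order without overlap.

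Urad, an enzyme of the pathway that degrades urate to allantoin, had levels of 6.72 and 7.21 in the 5/20/75 mice, 9.50 and 9.71 at high energy 33/20/47, 9.29, 9.75 and 9.68 at medium energy, and 10.12, 10.17 and 10.12 at 60/20/20. Its groups did not overlap across the 3 protein shares, and the slope was 0.56 ± 0.07 (adjusted p = 0.026), or 8.35-fold. Slc43a1, which carries large neutral amino acids such as leucine and phenylalanine, gave the smallest adjusted p of all genes (slope 0.46 ± 0.05, adjusted p = 0.016). It was measured at 2.51 and 2.63, then 3.96 and 3.91, then 3.70, 4.25 and 3.81 at medium energy, and 5.36, 4.95 and 5.00 at 60/20/20. Its 3 protein shares did not overlap, and the high energy midpoint lay 0.08 ± 0.25 from the straight line between the ends.

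Slc7a7, which exports cationic amino acids such as arginine and lysine, ran the other way. It stood at 6.44 and 6.51 in the 5/20/75 mice, 3.93 and 4.06 at high energy 33/20/47, 5.23, 4.38 and 5.13 at medium energy, and 3.80, 3.58 and 3.26 at 60/20/20. Both 5/20/75 mice were above all others, and the slope was -0.51 ± 0.08 (adjusted p = 0.037), a fitted 7.07-fold fall. Of 25 amino acid transporters tested these 2 alone passed, 1 in each direction. The list's median slope was -0.05 and turned to 0.03 once each array's interquartile range entered the fit.

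Slc7a7 and 2 textbook targets of ATF4 shared a short sequence in front of their start sites. The motif TGATGNAA, the core of the amino acid response element, was searched on both strands in RefSeq promoter windows of GRCm38.p6, which run from 250 bases before to 50 bases after a start. It occurred in 1304 of 32851 windows (3.97%), in 8 of the 27 windows of ATF4 targets (29.6%) and in 3 of the 20 windows of called genes, those of Got1 and Slc7a7. A window was listed for 13 of the 19 called genes. Stretches of 60 bases are printed for Asns and Fgf21, because they are the best known members of this response, and for Slc7a7, because it is the called fall that held the motif. They are chr6:7693210-7693269, chr7:45615596-45615655 and chr14:54418052-54418111, all on the minus strand and written 5′ to 3′ along the gene, with the motif in capitals.
Asns: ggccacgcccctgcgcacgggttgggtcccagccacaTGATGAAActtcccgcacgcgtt
Fgf21: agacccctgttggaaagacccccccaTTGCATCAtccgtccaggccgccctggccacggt
Slc7a7: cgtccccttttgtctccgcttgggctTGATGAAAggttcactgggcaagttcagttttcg
The first capital lies 23, 139 and 141 bases before the start, and in Fgf21 the motif is on the opposite strand. A match describes these letters only.

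Of 24 ATF4 targets 21 had negative slopes with a median of -0.16, and 0 passed in limma, while 12 had an unadjusted p under 0.05, 11 of them downward. The median was -0.09, with 19 negative slopes, once the interquartile range of the arrays was a covariate. Psat1, of serine synthesis, lay at 4.66 and 4.32 in the 5/20/75 mice, 1.62 and 1.69 at high energy 33/20/47, 1.59, 1.52 and 2.86 at medium energy, and 1.40, 1.20 and 1.31 at 60/20/20. Its level was thus high in the 5/20/75 mice alone, and its slope was -0.56 ± 0.09 (adjusted p = 0.052). Most of its other levels were near the low end of the array scale. Fgf21 measured 8.21 and 8.39, then 6.70 and 6.27, then 5.42, 4.49 and 6.38 at medium energy, and 4.13, 6.45 and 4.67 at 60/20/20, with a slope of -0.58 ± 0.11 (adjusted p = 0.086). Both 5/20/75 mice exceeded all others, but the 33% and 60% groups overlapped. In the contrast of the extreme diets Psat1 and Fgf21 were lower at 60/20/20 (limma adjusted p = 0.00176 and 0.0415).

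Asns, which makes asparagine, did not follow the protein share in the same way. It read 6.58 and 6.08 in the 5/20/75 mice and 1.96 and 2.40 at high energy 33/20/47, but 5.71, 4.51 and 5.28 at medium energy and 6.26, 2.57 and 4.57 at 60/20/20. The 60/20/20 mice spread over nearly the whole range, and the slope of -0.28 ± 0.23 did not pass (adjusted p = 0.843). Cth, an ATF4 target that also breaks down cystathionine, had a positive slope (0.27 ± 0.06, adjusted p = 0.135), and Trib3 (0.02) and Eif4ebp1 (0.01) were the other positive slopes of the list. Amino acid synthesis had 8 of 9 negative slopes and a median of -0.12, with 0 genes past the threshold and 3 with an unadjusted p under 0.05 in limma. With the same covariate 5 of 9 slopes were negative and the median was -0.07. Aldh18a1, of proline synthesis, and the mitochondrial folate enzyme Mthfd2 stood at -0.24 ± 0.06 and -0.33 ± 0.10.

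Scd1, the stearoyl-CoA desaturase, was the one called gene of the 20 for fatty acid synthesis. It stood at 9.22 and 9.26 in the 5/20/75 mice, 11.03 and 10.25 at high energy 33/20/47, 11.75, 10.61 and 10.53 at medium energy, and 11.78, 11.21 and 12.17 at 60/20/20. Both 5/20/75 mice lay below all others, and the slope was 0.45 ± 0.07 (adjusted p = 0.034), a fitted 5.53-fold. Fasn, the fatty acid synthase, was at 9.56 and 9.08 in the 5/20/75 mice and 8.94, 9.36 and 8.64 at 60/20/20, and its slope was -0.04 ± 0.12 (adjusted p = 0.968). Srebf1, the insulin-responsive regulator of lipogenesis, had a slope of -0.02 ± 0.06. The list's median slope was -0.01 and turned to 0.01 once each array's interquartile range entered the fit.

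Genes that burn fat had mostly negative slopes, that is, lower levels where fat was replaced, but none passed. Across 33 PPAR alpha targets and beta-oxidation genes 30 slopes were negative with a median of -0.08, and 0 genes passed against 14 with an unadjusted p under 0.05 in limma, 13 of them downward. Acadm, the medium-chain acyl-CoA dehydrogenase, stood at 11.35 and 11.41 in the 5/20/75 mice, 11.12 and 11.16 at high energy 33/20/47, 10.88, 10.77 and 10.76 at medium energy, and 10.63, 10.88 and 10.63 at 60/20/20. The high energy groups lay in order, with a slope of -0.12 ± 0.03 (adjusted p = 0.125), and in the contrast of the extreme diets the gene passed (limma adjusted p = 0.047). Pdk4, which spares glucose by blocking pyruvate dehydrogenase, had a slope of -0.43 ± 0.13 (adjusted p = 0.283). Its 60/20/20 mice lay at 5.06, 7.78 and 4.98, against 7.83 and 8.82 at 5/20/75. The carnitine palmitoyltransferase Cpt1a was at 10.77 and 10.86 at 5/20/75 and 10.70, 11.09 and 9.81 at 60/20/20, a slope of -0.03 ± 0.07. The 3 positive slopes of the list were Cyp4a12a (0.74), which is also on the male-biased liver list, Creb3l3 (0.03) and Acaa1a (0.03).

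For ketone bodies 4 genes were measured, all with negative slopes and a median of -0.17, and 0 passed in limma while 3 had an unadjusted p under 0.05. Bdh1, which makes beta-hydroxybutyrate, was at 9.06 and 9.10 in the 5/20/75 mice, 8.32 and 8.45 at high energy 33/20/47, 7.96, 7.92 and 8.33 at medium energy, and 7.47, 8.30 and 7.94 at 60/20/20. The 5/20/75 mice were the highest, and the slope was -0.21 ± 0.04 (adjusted p = 0.116; adjusted p = 0.047 for the extreme diets). The monocarboxylate carrier Slc16a1 (-0.24 ± 0.06) and the thiolase Acat1 (-0.12 ± 0.04) had adjusted p of 0.168 and 0.269. Lipid storage had 11 negative slopes of 19, not far from the 8651 of 16926 over all genes, and 0 calls, with 5 unadjusted p under 0.05 in limma. Cidec, which enlarges lipid droplets, stood at 6.01 and 6.24 in the 5/20/75 mice against 3.34 to 5.03 in the other 8, with a slope of -0.38 ± 0.09 (adjusted p = 0.176). Pparg (-0.40 ± 0.11) and the droplet coat gene Plin2 (-0.03 ± 0.04) did not pass either.

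**Figure D2:**
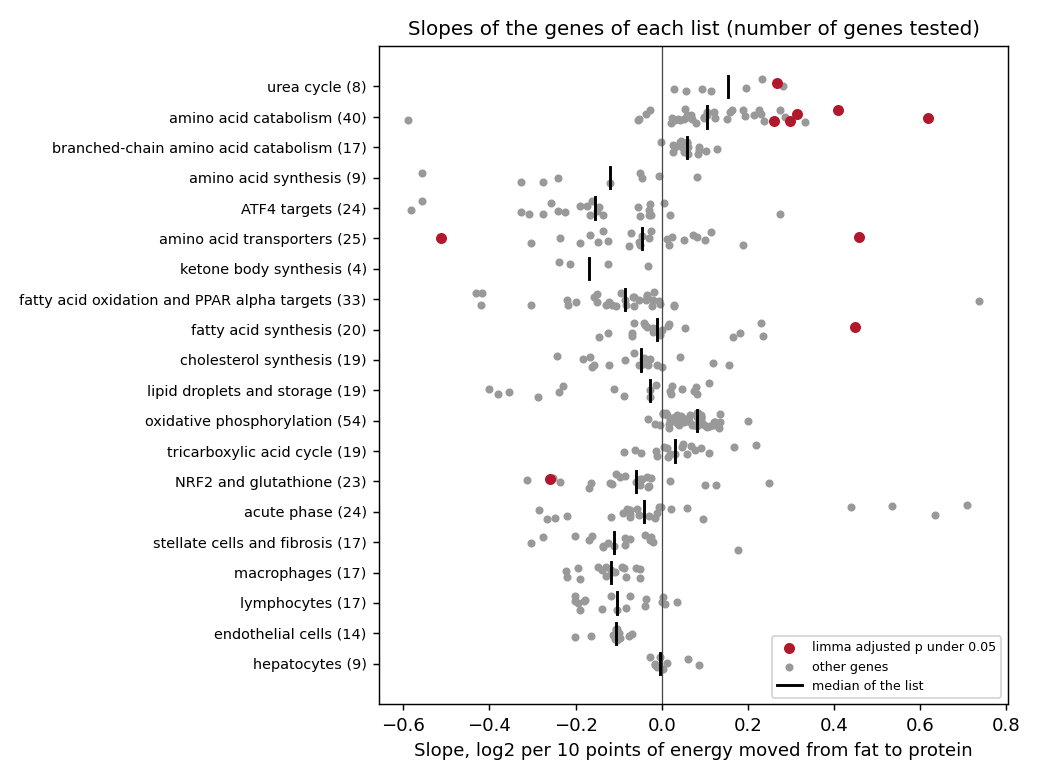
Each row is a gene list with its number of genes tested, and each point is a gene's slope in log2 for 10 points of energy moved from fat to protein. Red points passed the threshold and black bars are list medians, which run from -0.17 for ketone body synthesis to 0.15 for the urea cycle.

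Ces3b, a liver carboxylesterase, had the largest slope of any called gene at 0.90 ± 0.13 (adjusted p = 0.026), a fitted 31.1-fold. Its levels were 4.39 and 3.44 in the 5/20/75 mice, 8.19 and 8.06 at high energy 33/20/47, 9.09, 8.73 and 7.45 at medium energy, and 9.75, 8.26 and 9.13 at 60/20/20. Both 5/20/75 mice lay below all other mice, by more than the spread of those 8. Ces3b has close relatives in the same gene cluster, and its probe set may also read them. Lrtm1, a leucine-rich repeat membrane protein, was at 1.70 and 1.66, near the low end of the tested range, at 5/20/75, then 4.69 and 5.07, then 3.37, 3.90 and 5.01 at medium energy, and 6.72, 5.13 and 6.94 at 60/20/20 (slope 0.82 ± 0.11, adjusted p = 0.026). Gpcpd1, which cleaves glycerophosphocholine, rose with a slope of 0.40 ± 0.06 (adjusted p = 0.042). It went from 6.39 and 6.99 through 8.55 and 8.36 to 9.46, 8.82 and 8.58 in the high energy groups, with the medium energy mice between 7.44 and 8.05.

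Among enzymes of foreign compounds and eicosanoids, Cyp4f14, a leukotriene-hydroxylating P450, stood at 8.08 and 7.46, then 8.73 and 8.95, then 8.79, 9.03 and 8.66 at medium energy, and 9.48, 9.43 and 9.47 (slope 0.30 ± 0.04, adjusted p = 0.026). Cyp2f2, known for activating naphthalene, was at 9.60 and 10.40, then 10.74 and 11.12, then 11.49, 11.39 and 11.46, and 12.16, 11.69 and 11.57 (slope 0.33 ± 0.04, adjusted p = 0.026). In both genes the 60/20/20 mice were the highest of the 10. Ephx1, the microsomal epoxide hydrolase, fell from 10.37 and 10.32 through 9.24 and 9.58, with 9.26, 8.97 and 9.41 at medium energy, to 9.21, 8.62 and 8.85 (slope -0.26 ± 0.04, adjusted p = 0.038). It was the single call among 23 genes of NRF2 and glutathione, of which 19 had negative slopes. Gclc, the rate-limiting subunit of glutathione synthesis, was at 10.62 and 10.64 at 5/20/75 and 9.15 to 9.73 in the other 8 mice, with a slope of -0.23 ± 0.04 (adjusted p = 0.070). Among 27 xenobiotic P450 genes Cyp2f2 was the single call, and Cyp3a11 stood at -0.22 ± 0.04 (adjusted p = 0.072).

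Adgrg2, an adhesion G protein-coupled receptor, had the largest called fall. It was at 5.77 and 6.01 in the 5/20/75 mice, 1.93 and 3.02 at high energy 33/20/47, 2.20, 2.68 and 1.83 at medium energy, and 1.75, 1.89 and 1.91 at 60/20/20. High levels were limited to the 5/20/75 mice of this set, and the slope was -0.71 ± 0.10 (adjusted p = 0.026). The 60/20/20 levels are near the low end of the array scale, where Xist read 1.36 and 1.80 in the 60/20/20 mice with Y-linked genes above it, so no fold is given. Gbp10, a guanylate-binding protein of the interferon-induced family, lay at 8.59 and 8.71, then 7.15 and 7.41, then 5.88, 5.12 and 4.26 at medium energy, and 6.35, 6.10 and 5.84 (slope -0.46 ± 0.07, adjusted p = 0.033). Ifi27l2b, of another interferon-inducible family, was at 5.53 and 5.18, then 4.53 and 3.53, then 4.68, 4.79 and 5.48 at medium energy, and 1.87, 2.66 and 3.24 (slope -0.50 ± 0.08, adjusted p = 0.037). Unlike the other called falls, it was as high in a medium energy midpoint mouse as at 5/20/75. Both genes have close paralogs that a probe set may also read. Of 12 interferon-stimulated genes 0 passed and 4 had an unadjusted p under 0.05 in limma, with a median slope of -0.08.

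The low energy 60/20/20 mice had no part in these fits. All 3 lay above both 5/20/75 mice for 14 of the 14 called rises, an order found in 20.4% of all genes tested. They lay below them for 4 of the 5 called falls (27.6% of all genes), with Ifi27l2b as the exception at 6.66, 2.86 and 2.08. These genes were called on the same 5/20/75 mice, so the shares over all genes are no fair baseline here and the counts only describe levels. Only the high protein side was measured afresh. Cps1 was at 12.11, 12.33 and 12.39, Got1 at 10.32, 11.06 and 10.88, and Adgrg2 at 2.37, 1.84 and 2.50 in these mice. Among the 7 high energy mice the 3 protein shares were in order without overlap for all 14 rises and all 5 falls, against 0.792% and 1.02% of all genes, which describes the genes that such a test calls.

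Oxidative phosphorylation had 51 of 54 positive slopes and a median of 0.08, with 0 calls and 7 unadjusted p under 0.05 in limma. Its largest values were those of the complex IV subunits Cox5b (0.20 ± 0.05, adjusted p = 0.178) and Cox5a (0.13 ± 0.03, adjusted p = 0.200). The list's mean level was 7.38 to 7.39 in the 5/20/75 mice, 7.95 to 8.04 at high energy 33/20/47, 7.80 to 7.90 at medium energy and 7.62 to 8.09 at 60/20/20. The 5/20/75 mice were thus the lowest and the midpoint was no lower than 60% protein. The tricarboxylic acid cycle had 14 of 19 positive slopes, with Fh1, the fumarase, at 0.22 ± 0.05 (adjusted p = 0.138). The interquartile range of the arrays moved with these values. It was 3.54 to 3.63 in the 5/20/75 mice, above the 2.96 to 3.28 of high energy 33/20/47, the 2.98 to 3.24 of medium energy and the 3.12 to 3.43 of 60/20/20. Adding that range as a covariate left 2 genes, Slc43a1 (adjusted p = 0.042) and Ces3b (adjusted p = 0.042). The other 17 kept their direction with adjusted p from 0.056 to 0.078, and the medians of oxidative phosphorylation, amino acid catabolism and the urea cycle were 0.02, 0.10 and 0.16.

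Of the lists for cells other than hepatocytes, 3 had nearly uniform slopes in the main fit. All 17 macrophage and all 14 endothelial genes, and 16 of 17 markers of stellate cells and fibrosis sloped downward (medians -0.12, -0.11 and -0.11). In these lists 0 genes passed, and 6, 5 and 6 had an unadjusted p under 0.05 in limma, all downward. With the interquartile range of the arrays as a covariate 16, 13 and 13 slopes were negative, and the medians were -0.09, -0.05 and -0.07. Lymphocyte genes had 13 of 17 negative slopes (median -0.10), and 16 of 17 with that covariate (median -0.10). Cholangiocyte genes had 3 of 5 negative slopes (median -0.02). Adipocyte genes had 3 of 4 positive slopes (median 0.06), skeletal muscle genes 5 of 8 (0.01), exocrine pancreas genes 2 of 4 (0.0044) and erythroid genes 1 of 2 (0.0029). From lymphocytes to erythroid cells 0 genes of these lists passed in limma, with 6 lymphocyte genes and 1 muscle gene at an unadjusted p under 0.05. Col3a1, a fibrillar collagen, was at 5.87 and 5.49 in the 5/20/75 mice and 3.39 to 4.69 in the other 8 (slope -0.30 ± 0.07, adjusted p = 0.136). The mean level of the stellate list was 5.15 in both 5/20/75 mice and 4.17 to 4.85 in the rest, and that of the endothelial list 6.86 to 7.13 against 6.12 to 6.66. Macrophage levels were 5.62 to 6.07 at 5/20/75, 5.41 to 5.57 at high energy 33/20/47, 5.09 to 6.08 at medium energy and 5.10 to 5.22 at 60/20/20. The hepatocyte list lay between 11.06 and 11.21 in all 10 mice, with a median slope of -0.0047. In whole liver RNA, fewer cells of a type and less RNA in each cell cannot be told apart, and the part of these cells in the slopes above was not tested.

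Transcripts that differ between the sexes varied among the mice. The mean of the Y-linked genes lay above Xist in 1 of the 2 mice at 5/20/75, 0 of 2 at high energy 33/20/47, 2 of 3 at medium energy and 2 of 3 at 60/20/20. Of 18 liver genes known to be higher in males 17 had positive slopes (median 0.43), and of 18 higher in females 16 had negative slopes (median -0.31). Cyp2f2 is on the male list, as is the complement gene C9 (slope 0.67 ± 0.11, adjusted p = 0.052). With the difference between Y-linked genes and Xist as a covariate, 14 of the 19 genes passed, Cyp2f2 among them (0.34 ± 0.04, adjusted p = 0.044). Acmsd, Ephx1, Gpcpd1, Ifi27l2b and Slc7a7 did not, at adjusted p from 0.063 to 0.072. Their slopes were 0.62, -0.27, 0.40, -0.50 and -0.52 with it, against 0.62, -0.26, 0.40, -0.50 and -0.51 without.

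**Figure D3:**
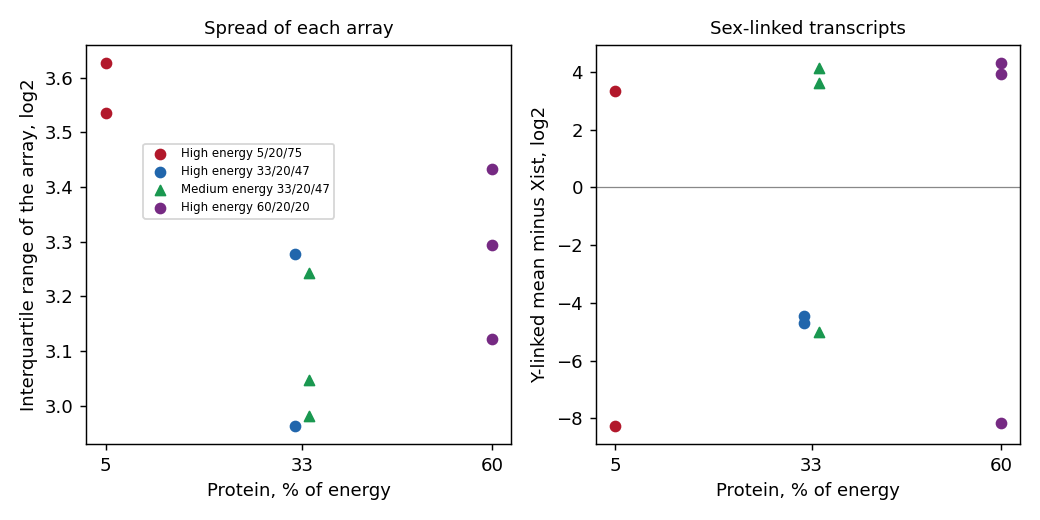
The left panel plots the interquartile range of each array in log2 and the right panel the mean of the Y-linked genes minus Xist in log2, against protein as percent of energy. The 5/20/75 mice have the widest arrays, at 3.54 and 3.63, and both high energy 33/20/47 mice have Xist above the Y-linked genes.

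The next question was whether the change was even along the exchange. The high energy 33/20/47 mice were set against the value at 33% protein on the straight line between the 5/20/75 and 60/20/20 means. Orm1, an acute phase glycoprotein, Nnmt, which methylates nicotinamide, and the P450 and glucuronosyltransferase genes Cyp3a16 and Ugt2b37 lay above the line, and the transcription factor Tbx3 lay below it. These were the 5 calls among 16926 genes (0.0295%), 4 upward (0.0236%) and 1 downward (0.00591%), while 3881 genes had an unadjusted p under 0.05 in limma.

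Orm1 was at 5.89 and 5.95 in the 5/20/75 mice, 10.47 and 10.03 at high energy 33/20/47, 10.43, 10.86 and 10.83 at medium energy, and 10.14, 9.68 and 10.35 at 60/20/20. The whole rise lay below 33% protein, and the departure was 2.23 ± 0.21 (SE; limma adjusted p = 0.0054). Nnmt was at 2.13 and 2.18, then 7.70 and 7.27, then 6.67, 7.48 and 7.92 at medium energy, and 7.17, 7.42 and 7.32 at 60/20/20. Its midpoint and high protein groups overlapped, and the departure was 2.71 ± 0.30 (adjusted p = 0.012). Over the straight line alone neither gene passed (slopes 0.71 ± 0.13 and 0.88 ± 0.17, adjusted p = 0.074 and 0.072). In the contrast of the extreme diets both did (limma adjusted p = 1.63e-05 and 2.39e-05). Orm1 has near-identical neighbours, and Orm2 (slope 0.44 ± 0.13) and Orm3 (0.53 ± 0.17) may share its transcripts.

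Tbx3, expressed in hepatocytes near the central vein, was at 7.74 and 7.89 in the 5/20/75 mice, 4.76 and 5.73 at high energy 33/20/47, 5.48, 5.82 and 5.57 at medium energy, and 6.62, 7.18 and 6.82 at 60/20/20. All 5 midpoint mice lay below both ends, with a departure of -2.09 ± 0.27 (adjusted p = 0.025). With both midpoint groups pooled, Orm1 (2.50 ± 0.16), Nnmt (2.63 ± 0.23) and Tbx3 (-1.86 ± 0.21) were past the threshold. Cyp3a16 (2.43 ± 0.73, adjusted p = 0.082) and Ugt2b37 (0.71 ± 0.24, adjusted p = 0.100) were not. Without high energy 33/20/47 replicate 1 none of the 5 genes passed, and adding the arrays' interquartile range left 0 genes (1059 with an unadjusted p under 0.05 in limma). The departures with that range were 1.95 for Orm1, 2.94 for Nnmt, 2.77 for Ugt2b37, 8.73 for Cyp3a16 and -1.63 for Tbx3. With the spread estimated from all 48 mice 32 genes passed and none of these 5 was among them (limma adjusted p from 0.081 to 0.122). The count was 2698 without 60/20/20 replicate 3, 53 without high energy 33/20/47 replicate 2, 15 without 60/20/20 replicate 2, 3 without 5/20/75 replicate 2, and 2 without medium energy replicate 1, without medium energy replicate 2 or without high energy 33/20/47 replicate 1.

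**Figure D4:**
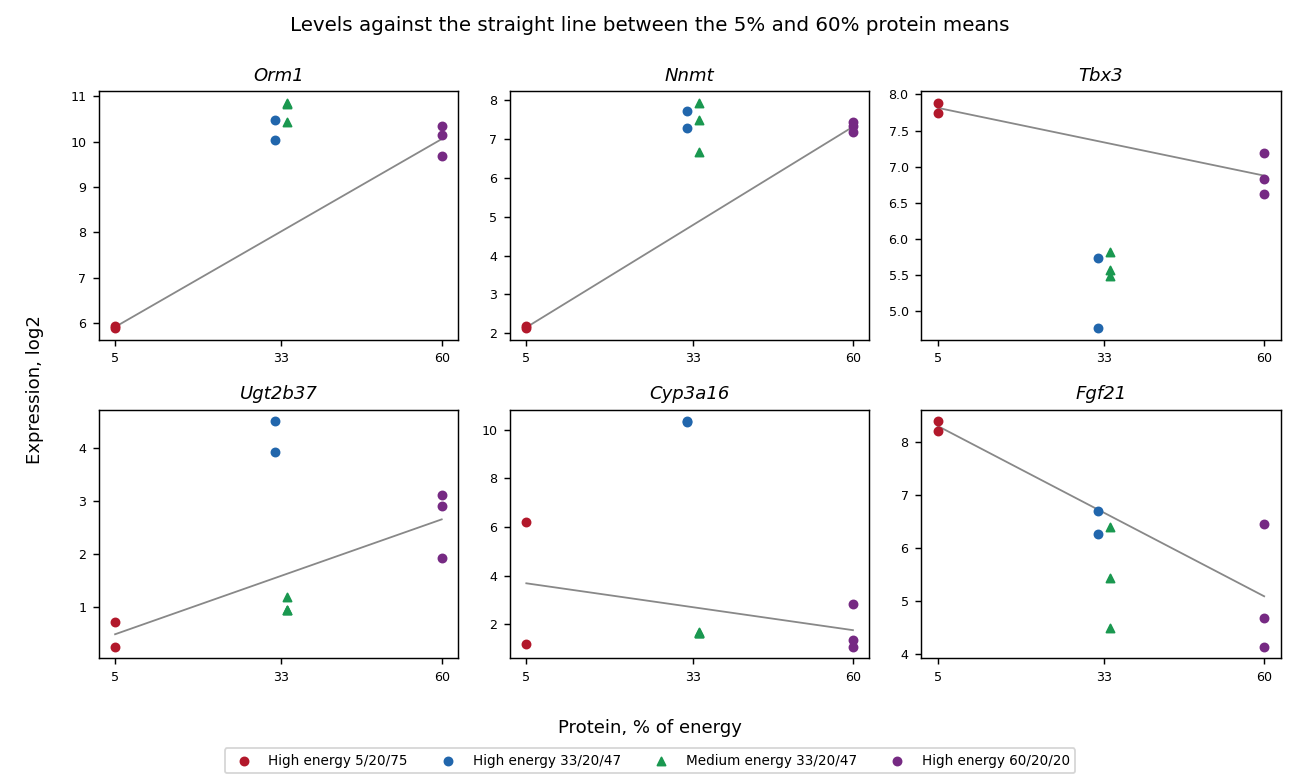
Log2 expression of 6 genes is plotted against protein as percent of energy, 1 point per mouse, with a line between the high energy 5/20/75 and 60/20/20 means. Orm1 and Nnmt reach their high protein level by 33% protein at both energy levels, Tbx3 is lowest at the midpoint, and Ugt2b37 and Cyp3a16 are high in the high energy midpoint mice only among those at 33%.

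Cyp3a16 is on the list of genes higher in females. It was at 1.18 and 6.19 in the 5/20/75 mice, 10.35 and 10.34 at high energy 33/20/47, 1.66, 1.70 and 1.64 at medium energy, and 1.37, 2.84 and 1.07 at 60/20/20. Both mice in which it exceeded 10 had Xist above the Y-linked genes. So had 5/20/75 replicate 2 and 60/20/20 replicate 2, the highest of their groups at 6.19 and 2.84. Medium energy replicate 3 had it too, and there Cyp3a16 was low at 1.64. As this held for both high energy midpoint mice, the departure cannot be fully told apart from the difference between Y-linked genes and Xist. The departure was 7.64 ± 0.97 (adjusted p = 0.025), and 6.99 ± 0.70 (adjusted p = 0.0021) with that difference as a covariate. The covariate entered as a number, which was -4.46 and -4.71 in the high energy midpoint mice. In 5/20/75 replicate 2 and 60/20/20 replicate 2 it was -8.27 and -8.16. That fit therefore need not remove a whole difference between the sexes. Ugt2b37 was at 0.72 and 0.25, then 4.50 and 3.92, then 0.95, 1.18 and 0.94 at medium energy, and 2.91, 3.11 and 1.93 at 60/20/20 (departure 2.62 ± 0.31, adjusted p = 0.019). Its 5/20/75 and medium energy values lay near or below the filter value of 1.17, and most low values of Cyp3a16 lay near it, so their sizes are uncertain.

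Medium and high energy mice at 33/20/47 were also contrasted, to see how far the extra midpoint stood from the high energy one. Of 16926 genes 7 differed (0.0414%), 2 higher (0.0118%) and 5 lower (0.0295%) at medium energy, and 1539 had an unadjusted p under 0.05 in limma. Cyp3a16 (-8.68 ± 1.05, adjusted p = 0.022) and Ugt2b37 (-3.19 ± 0.34, adjusted p = 0.017) were lower at medium energy, with the values given above. So were the serine protease inhibitor Serpinb1a (-2.80 ± 0.38), the interferon-induced chaperone Rtp4 (-2.01 ± 0.28) and the pseudogene Mup-ps12 (-4.03 ± 0.58), each at an adjusted p of 0.048. The complement component C8a stood at 10.47, 10.35 and 9.75 at medium energy and 6.01 and 6.53 at high energy (3.92 ± 0.55, adjusted p = 0.048). Mug2, a murinoglobulin protease inhibitor, was at 10.75, 11.06 and 11.17 against 9.20 and 9.66 (1.57 ± 0.18, adjusted p = 0.017). In these genes the 2 groups did not overlap, which describes the genes that such a test calls. The share of all genes with that order was not counted. Cyp3a16, Ugt2b37 and Mup-ps12 belong to families of near-identical genes that a probe set may also read. None of the 19 genes called along the protein exchange was among the 7. With 0.0414% of all genes called an overlap could hardly occur, so this does not show that energy level leaves the 19 unchanged. The count was 0 without medium energy replicate 2 (1328 genes with an unadjusted p under 0.05 in limma), 1 without high energy replicate 1, 2 without medium energy replicate 3, 4 without either 5/20/75 mouse, 21 without 60/20/20 replicate 2 and 29 without 60/20/20 replicate 3. Mouse numbers in the labels were 162 and 198 at high energy and 150, 419 and 420 at medium energy. They cannot be fully told apart from energy level. Both high energy mice also had Xist above the Y-linked genes and 2 of 3 medium energy mice did not. Energy level and this difference cannot be fully told apart here either. With the Y-linked minus Xist value as a covariate Rtp4 and Mup-ps12 did not pass (adjusted p = 0.067 and 0.097), at differences of -2.07 and -3.94. With the spread of all 48 mice 11 genes passed, and of the 7 above Mug2 and Rtp4 were among them.

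Protein can also replace carbohydrate, and the labels held a matching series at 20% fat: 4 mice on high energy 5/75/20, 2 on high and 2 on medium energy 33/47/20, and the same 3 high energy 60/20/20 mice. Both routes were fitted in 1 model of 18 mice and the difference of their slopes was tested. Scd1 was the single gene of 16926 that differed (0.00591%), and 652 had an unadjusted p under 0.05 in limma. Its slope was 0.43 where protein replaced fat and 0.01 where protein replaced carbohydrate, a difference of 0.42 ± 0.06 (SE, n = 18; adjusted p = 0.042). Scd1 stood at 11.68, 11.84, 11.27 and 11.97 in the 5/75/20 mice, against 9.22 and 9.26 at 5/20/75. At 33/47/20 it was at 12.26 and 10.42 at high energy and 11.92 and 12.29 at medium energy. The mice low in protein and rich in carbohydrate thus lay in the range of the 60/20/20 mice, and those low in protein and rich in fat lay below every other mouse of both routes. The direction was kept in all 18 fits that left out 1 mouse, while the call was kept in 4 of them.

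Both routes end in the same 3 mice on 60/20/20 and the called genes were chosen on the fat route, so slopes are only set side by side. Cps1 stood at 0.25 for fat and 0.13 for carbohydrate (difference 0.12 ± 0.03, adjusted p = 0.637), Ces3b at 0.87 and 0.40 (0.47 ± 0.13, adjusted p = 0.675) and Adgrg2 at -0.72 and -0.60 (-0.13 ± 0.09). Urad, with 0.51 and 0.18, had the next smallest p among called genes (0.33 ± 0.07, adjusted p = 0.485). It lay at 9.39, 10.10, 10.05 and 8.40 in the 5/75/20 mice, above the 6.72 and 7.21 of 5/20/75. All 4 mice on 5/75/20 lay above both 5/20/75 mice in 9 of the 14 rises (8.77% of all genes tested), and below them in 3 of the 5 falls (10.6%). The genes were called on these same 5/20/75 mice, so the shares over all genes are no fair baseline and the counts only describe levels. Fgf21 and Lepr, the leptin receptor, had close slopes on both routes: -0.68 and -0.65 for Fgf21 and -0.65 and -0.64 for Lepr. The differences were -0.03 ± 0.11 and -0.01 ± 0.16. Among the 5 smallest p of this contrast were also the arrestin gene Sag (-0.23 ± 0.05), the leukotriene receptor Cysltr1 (-0.16 ± 0.03) and the hexokinase Hk3 (-0.14 ± 0.03), each at an adjusted p of 0.485. With the spread estimated from all 48 mice Scd1, Sag and Urad passed (limma adjusted p = 0.0003, 0.0003 and 0.0046), and Cysltr1 and Hk3 did not. With array weights all 5 passed, at limma adjusted p from 0.0005 to 0.040.

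**Figure D5:**
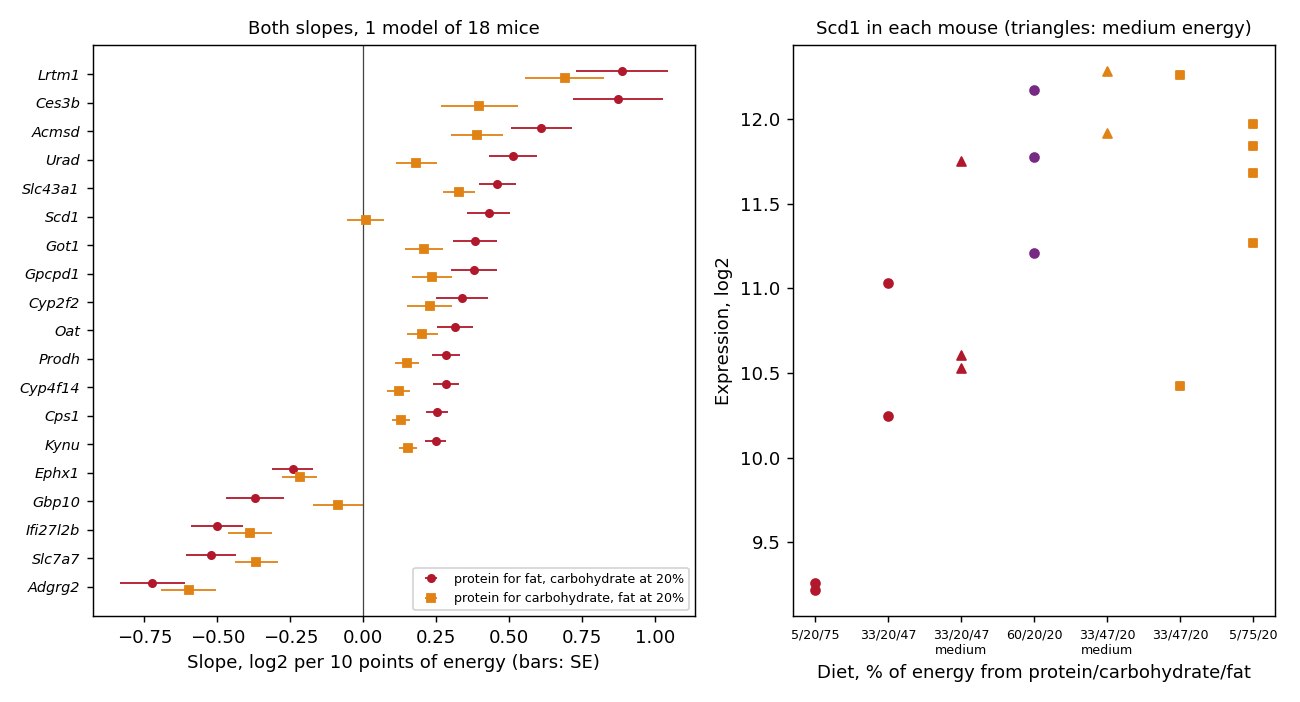
The left panel plots both slopes of each called gene from the model of 18 mice, in log2 for 10 points of energy with SE bars, for protein in place of fat and in place of carbohydrate. The right panel plots Scd1 in each mouse in log2 by diet, with medium energy mice as triangles, and the 5/20/75 mice at 9.22 and 9.26 lie below all others.

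Other genes with known roles in diet responses did not pass the slope test. Cdkn1a, a cell cycle inhibitor, was at 8.88 and 9.70 in the 5/20/75 mice, 8.18 and 8.60 at high energy 33/20/47, 7.54, 9.57 and 9.55 at medium energy, and 6.44, 7.85 and 5.66 at 60/20/20 (slope -0.49 ± 0.12, adjusted p = 0.186). The high energy groups lay in order, but the medium energy mice reached the 5/20/75 level. Lepr was at 8.50 and 8.33, then 5.35 and 6.27, then 4.73, 4.46 and 6.59, and 4.34, 7.43 and 4.22, with both 5/20/75 mice highest and a wide spread at 60/20/20 (-0.54 ± 0.17, adjusted p = 0.306). The growth factor Igf1 had a slope of 0.10 ± 0.04, its binding protein Igfbp1 -0.26 ± 0.14, the gluconeogenic Pck1 0.01 ± 0.03 and the bile acid enzyme Cyp7a1 0.25 ± 0.14. Their adjusted p were 0.544, 0.656, 0.984 and 0.676, and with 10 mice slopes of this size may go undetected.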

How the data were processed

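Liver RNA was extracted with a Qiagen AllPrep kit and hybridised to Affymetrix arrays, per the labels' protocols. The values deposited by the authors were read as log2 expression from their range (-0.51 to 13.42) and used as deposited. Their background correction, normalization and software are not given in the sources used here. Gene names came from the platform annotation, which gave 1 symbol for 23521 of 41345 probe sets, several for 1814 and none for the rest, and 23328 matched RefSeq. A gene was its probe set with the highest mean over 48 arrays (22180 genes), and 16926 with a mean above the 30th percentile (1.17) were tested. Replicate numbers follow the order of the samples and pair nothing.

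Each gene was tested two-sided in R 4.3.3 with the lmFit and trended eBayes functions of limma 3.58.1, with Benjamini-Hochberg adjustment over all genes tested, for 4 results: the slope on protein (10 mice, 7 residual degrees of freedom), the departure at 33%, medium minus high energy, and the difference of routes (18 mice). No set test was made, so lists are described by counts and medians. On simulated data with independent genes, slopes of 0.2, 0.4 and 0.8 were recovered in 31.3%, 88.1% and 100% of changed genes, with 4.58% false calls. Departures of 1, 2 and 3 were recovered in 20.9%, 88.1% and 95.5% (5.56% false), energy differences of 1, 2 and 4 in 20.9%, 80.6% and 93.9% (7.8% false), and route differences of 0.2, 0.4 and 0.8 in 62.7%, 98.5% and 100% (3.87% false). The simulated noise took each gene's spread from all 48 mice and held no differences between whole arrays, so these rates need not hold for the real arrays. Promoter windows were credited to RefSeq GRCm38.p6.

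Named genes were the 12 largest rises and falls past the threshold, up to 4 genes with the smallest p of a described list, the 5 smallest p of each other result, and 20 genes with known diet responses. Members, lists and this rule were chosen with earlier results of these data known. The alternatives changed the filter, probe set rule, normalization, weights, covariates, mice or protein scale, or left out each mouse, and 1 was added after seeing the data.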

Additional observations from a re-analysis of the deposited data

Results flagged for a closer look

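The slope of Scd1 where protein replaced fat minus its slope where protein replaced carbohydrate was 0.42 ± 0.06 (SE, n = 18, limma adjusted p = 0.042). This was the only tested difference between both routes past the threshold in the main fit of 16926 genes. With the spread of all 48 mice 5 genes passed, and 13 with array weights, Scd1 among them both times. Scd1 stood at 9.22 and 9.26 in the 5/20/75 mice and at 11.27 to 11.97 in the 4 mice on 5/75/20. Leaving out 1 mouse kept the difference between 0.41 and 0.45, but the call was kept in 4 of 18 such fits, with adjusted p up to 0.571. Its cause was not tested.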

How the results depend on the processing

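The main counts were 19 genes for the slope, 5 for the departure at 33%, 7 for medium minus high energy and 1 for the difference of routes. For the slope, array weights gave 358, each array's interquartile range 2, the spread of all 48 mice 90 (13 of the 19), the high energy mice alone 4, no energy term 10, the logarithm of protein 113, the contrast of extreme diets 173 and the low energy 60/20/20 mice added 36. For the departure, array weights gave 2034, the Y-linked minus Xist value 16, the spread of all 48 mice 32 (0 of the 5), the pooled midpoint 27, and the interquartile range, alone or with the Y-linked minus Xist value (added after seeing the data), 0 (1059 and 416 unadjusted p under 0.05 in limma). For medium minus high energy, no filter, a stricter filter, mean probe sets and array weights each gave 3, the interquartile range 19, the spread of all 48 mice 11 (2 of the 7), both covariates 4, and the medium energy mouse numbered under 300 alone 0 (1313). For the difference of routes, array weights gave 13, the spread of all 48 mice 5, the high energy mice alone 2, and the Y-linked minus Xist value, the interquartile range, both together and a term for mouse number over 300 each 0 (581, 1064, 889 and 729). Leaving out 1 mouse gave 0 to 51 genes for the slope, 2 to 2698 for the departure, 0 to 29 for energy and 0 to 1 for the routes. All other alternatives kept counts within 1.5 times, and the cause of these changes was not tested. Among named genes that did not pass, slopes turned sign for Srebf1 (0.0404 with the interquartile range and 0.0406 with both covariates; -0.0649 to 0.0136 without 1 mouse), Cpt1a (0.0794 and 0.0795; -0.104 to 0.0153), Pck1 (-0.0324 after quantile normalization, -0.00309 with array weights, -0.00531 with the logarithm of protein; -0.0130 to 0.0251), Fasn (-0.0977 to 0.0509 without 1 mouse) and Plin2 (-0.0641 to 0.00406). No paired analysis was possible because the labels give no replicate numbers. Genes near the low end of the array scale have compressed differences.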
